A study of Mus musculus with 6 samples.

Results

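The secreted Wnt antagonists are extracellular proteins that keep Wnt ligands from their receptors. They were examined here as 10 genes, *Dkk1*, *Dkk2*, *Dkk3*, *Sfrp1*, *Sfrp2*, *Sfrp4*, *Sfrp5*, *Frzb*, *Wif1* and *Sostdc1*, chosen by gene symbol. Each symbol had 1 row among the 27506 genes of the deposited count table, and all 10 passed the filter on low counts. The RNA was that of dental pulp, dissected from lower first molars of C57BL/6 mice 3.5 days after birth, when root formation begins. The 3 control libraries came from Ror2fl/fl mice, for which the genotype label gives the floxed *Ror2* allele and lists no Cre. The 3 mutant libraries came from Osr2-Cre;Ror2fl/fl mice, in which Cre driven by *Osr2* removes *Ror2* from the dental mesenchyme and alveolar bone and leaves the dental epithelium untouched. They were bred from Ror2fl/fl females and males that carried the Cre with 1 floxed allele. The library titles fall into a different number series for each genotype, so handling and genotype cannot be told apart. The titles also hold a letter code that the labels do not explain, which is WW in control library 1, OW in control libraries 2 and 3, and OR in all mutant libraries. *Ror2* encodes a receptor for non-canonical Wnt signaling. The comparison asked which of the antagonists differed in transcript level after the loss of mesenchymal *Ror2*.

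Wnt ligands signal through Frizzled receptors, with Lrp5 and Lrp6 as co-receptors in the canonical, β-catenin-dependent pathway. The antagonists act at different points of this step. The Sfrp proteins and Frzb carry a cysteine-rich domain like that of the Frizzled receptors and bind Wnt ligands, and so does Wif1, through a domain of its own. Dkk1 and Dkk2 bind Lrp5 and Lrp6, together with the Kremen receptors, whereas Dkk3 is a divergent member of its family. Sostdc1 binds both BMP ligands and Lrp co-receptors, and is known in the tooth for restraining tooth number and cusp pattern. Several of these genes are also transcriptional targets of the pathway that they restrain.

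The libraries held between 56134770 and 62628940 estimated counts. Mutant library 2 stood apart within its group, with a chi-square per gene of 270 and 219 against mutant libraries 1 and 3, which differed from each other by 61.7, while the pairs of control libraries had values from 123 to 170. *Ror2* itself had 38.2, 36.2 and 36.7 CPM (the deposited counts scaled to a common library size with TMM factors) in control libraries and 27.9, 28.1 and 26.3 CPM in mutant libraries. The quasi-likelihood test of edgeR put this at -0.43 ± 0.08 (log2 fold change ± standard error, adjusted p = 0.0134), or 0.74 of the control level. Counts over a whole gene and all cells cannot show how complete the loss in the mesenchyme was. Although the labels name dental pulp, 12 markers of dental epithelium, the enamel protein genes *Amelx* and *Ambn* foremost among them, took between 17.8% and 19.3% of the estimated counts in control libraries and between 19.1% and 24.2% in mutant libraries. Epithelial transcripts were thus abundant in both groups, and none of the 12 markers was at 0. In such bulk libraries, fewer cells of a type and less RNA per cell cannot be told apart. The 8 markers of dental mesenchyme summed to between 691 and 760 CPM in control libraries and between 716 and 842 CPM in mutant libraries. *Dlx3* and *Msx2* were the most abundant of them, so they weigh most in this sum. The fitted change was above 0 for 4 of the 8 markers and below 0 for 4. Their mean log2 CPM was 5.435 ± 0.162 (SD) in control and 5.317 ± 0.15 in mutant libraries, with overlap of the groups. Transcripts of skeletal muscle were scarce, and 6 of 7 such markers could be tested. They summed to between 9.52 and 33.2 CPM in control libraries and between 2.97 and 3.21 CPM in mutant libraries.

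To see which antagonists were most abundant, counts were divided by the length of the exons, giving CPM per kb. *Wif1* and *Sostdc1* stood highest, *Dkk3* and *Sfrp1* followed, and *Sfrp4* was far below the rest. In control libraries *Wif1* had 94.5, 118 and 114 CPM per kb, above 98.5% of the genes tested. *Sostdc1* had 53.6, 72.7 and 72 CPM per kb in the same libraries. *Dkk3* had a mean of 29.9 ± 1.3 (SD, n = 3) CPM per kb and *Sfrp1* of 22 ± 3.93 CPM per kb. *Sfrp2* (13.1 ± 1.19) stood next, then *Dkk1* (7.65 ± 2.05), *Frzb* (5.85 ± 1.08), *Sfrp5* (4.63 ± 0.488) and *Dkk2* (4.18 ± 0.375 CPM per kb). *Sfrp4* had 0.654 ± 0.121 CPM per kb, 6.39-fold below *Dkk2*. Among neighbors in this order, the control libraries of *Dkk1* and *Frzb*, of *Frzb* and *Sfrp5*, and of *Sfrp5* and *Dkk2* overlapped in level, so these pairs did not differ beyond their spread.

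The order was similar in mutant libraries, with changes at the top and in the middle. *Sostdc1*, with 75.1, 87.1 and 106 CPM per kb, had a mean just above that of *Wif1*, with 101, 74.8 and 91.3 CPM per kb, and their levels overlapped. *Sfrp5* moved from the eighth to the seventh place, ahead of *Frzb*, and no longer overlapped with *Dkk2*. The sum of all 10 genes was 263 ± 31.6 CPM per kb in control and 264 ± 15.4 CPM per kb in mutant libraries (SD, n = 3 each), so the total level of antagonist transcripts differed between the groups by less than the spread between libraries.

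**Figure D1:**
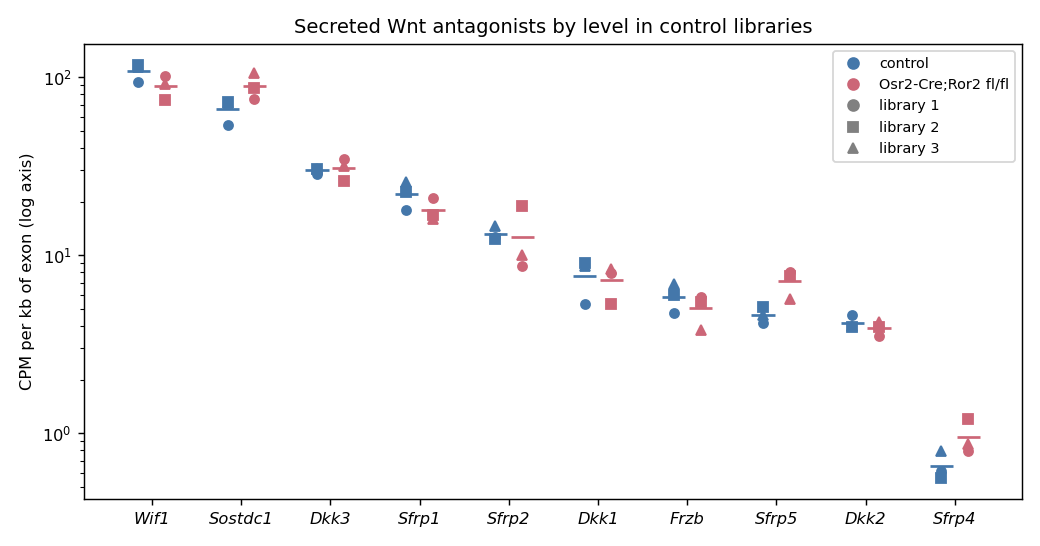
Level of each antagonist in CPM per kb of exon, on a log axis, ordered by the control mean. Each point is a library, with shape giving the library number, and short lines are group means; *Wif1* and *Sostdc1* lie at the top of both groups and *Sfrp4* at the bottom, with a control mean of 0.654 CPM per kb.

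Of the 10 antagonists, 1 passed an adjusted p-value of 0.05 between mutant and control libraries, by the quasi-likelihood test of edgeR with p-values adjusted after Benjamini and Hochberg across 19330 genes. This was *Sfrp5*, which was higher in mutant libraries. Across all genes tested 20.2% passed the same threshold, 10.4% higher and 9.84% lower, so that 1 of 10 is not above the background. Without adjustment, 3 of the 10 had p-values under 0.05, all of them higher in mutant libraries, where 38.3% of all genes did. These were *Sfrp5*, *Sostdc1* and *Sfrp4*. For the same 3 genes the levels of the groups did not overlap, as was the case for 44.7% of all genes tested, 22.6% with higher and 22.1% with lower values in mutant libraries. The median log2 fold change was -0.07 over the 10 antagonists and 0.01 over all genes tested, and the median size of the change, regardless of direction, was 0.25 against 0.32. Exact permutation tests gave a two-sided p of 0.1 for each of the 3 genes, the smallest that 3 libraries against 3 allow.

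**Figure D2:**
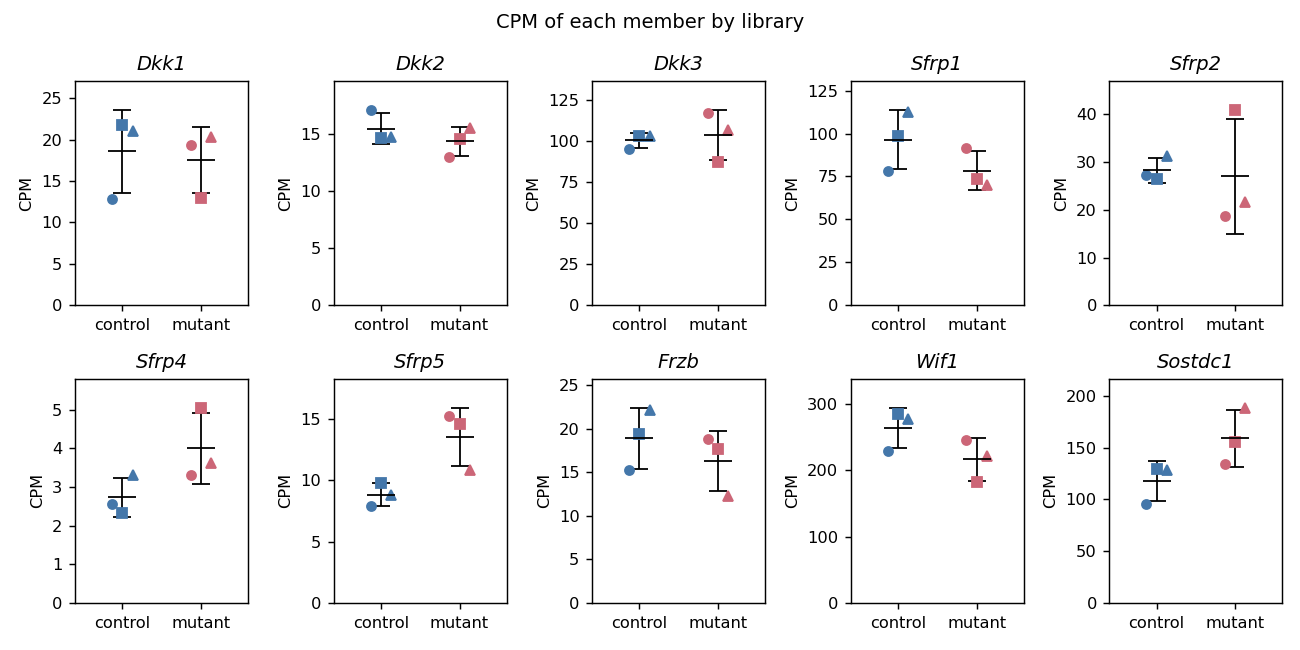
CPM of each antagonist in the 3 control and 3 mutant libraries, on axes that start at 0. Points are libraries, the horizontal mark is the mean and the bars are 1 SD; the groups lie apart for *Sfrp4*, *Sfrp5* and *Sostdc1*, and *Sfrp2* has a single high mutant library at 40.9 CPM.

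*Sfrp5* (ENSMUSG00000018822.7), a secreted Frizzled-related protein, is encoded on chromosome 19 (mm10, 42197971 to 42202252, minus strand). It had 7.87, 9.73 and 8.81 CPM in control libraries and 15.2, 14.5 and 10.8 CPM in mutant libraries. All mutant libraries were above all control libraries, although mutant library 3 stood closer to the controls than the other mutant libraries did. The log2 fold change was 0.62 (standard error 0.16, 95% interval 0.26 to 0.98, adjusted p = 0.0305 from edgeR), a rise of 1.54-fold. Between 507 and 899 counts lay behind each value. None of the 75-base stretches of its transcript, the length of a read, occurs in the transcripts of another gene. The call was lost when any of the 3 control libraries or mutant library 1 or 2 was left out, with adjusted p-values from 0.0525 to 0.119 from edgeR. It was kept without mutant library 3 (adjusted p = 0.0112).

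The rise was smaller when the fit allowed for base composition. The *Sfrp5* transcript is 60.3% G and C, the highest of the 10 antagonists, which otherwise run from 44.4% to 52.9%. With an offset for GC content the log2 fold change was 0.39 (adjusted p = 0.106 from edgeR), and with offsets for GC content and exon length it was 0.31 (adjusted p = 0.197).

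The promoters of *Sfrp5* and of *Sfrp2*, the gene of the same family with the widest scatter among mutant libraries, are shown because RefSeq and GENCODE place the start of both at the same base. Each run is the 250 bases before the start in GRCm38.p6, read along the gene's own strand. The *Sfrp5* run is chr19:42202253-42202502 on the minus strand and the *Sfrp2* run is chr3:83766071-83766320 on the plus strand. Capitals mark a GC box (GGGCGG), searched on both strands with the TCF/LEF core motif (CTTTGA).
Sfrp5: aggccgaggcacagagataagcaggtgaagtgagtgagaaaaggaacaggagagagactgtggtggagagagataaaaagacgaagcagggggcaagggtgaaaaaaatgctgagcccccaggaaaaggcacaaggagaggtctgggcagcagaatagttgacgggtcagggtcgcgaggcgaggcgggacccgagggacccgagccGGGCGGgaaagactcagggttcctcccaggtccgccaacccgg
Sfrp2: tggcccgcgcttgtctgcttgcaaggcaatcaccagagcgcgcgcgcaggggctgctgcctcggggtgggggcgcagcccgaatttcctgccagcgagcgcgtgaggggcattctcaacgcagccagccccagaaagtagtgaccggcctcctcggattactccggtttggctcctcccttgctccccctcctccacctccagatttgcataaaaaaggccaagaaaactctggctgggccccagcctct
The *Sfrp5* run holds 1 GC box, whose first base lies 43 bases before the start, and a second box, not shown, begins 1 base before it. The *Sfrp2* run holds neither motif. RefSeq windows of 300 bases, 250 before and 50 after the start, were at hand for 6 of the 10 antagonists. The TCF/LEF core was in 2 of the 6, *Dkk1* with 2 matches and *Frzb* with 1, and in 12.3% of the windows of the genes tested. The GC box was in 4 of the 6, *Sfrp5*, *Dkk2*, *Frzb* and *Wif1*, and in 58.8% of those windows. For *Dkk1*, *Frzb* and *Wif1*, GENCODE places the start 169, 229 and 44 bases further upstream, within the window.

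Among the other Frizzled-related genes, *Sfrp4* had values in the same direction as *Sfrp5*, and *Sfrp1* and *Frzb* in the opposite one. *Sfrp4* (ENSMUSG00000021319.7; plus strand of chromosome 13, 19623104 to 19632994) had 2.56, 2.33 and 3.3 CPM in control libraries and 3.31, 5.04 and 3.63 CPM in mutant libraries. The groups lay apart by a hair, since control library 3 and mutant library 1 were almost equal. Its log2 fold change was 0.55 (standard error 0.22, 95% interval 0.04 to 1.06, adjusted p = 0.109 from edgeR), and between 136 and 291 counts lay behind each value, the fewest of the 10. Without mutant library 2, its highest, the log2 fold change was 0.35.

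*Sfrp1* (ENSMUSG00000031548.7; plus strand of chromosome 8, 23411502 to 23449632), the most abundant gene of the family, had 78.2, 98.4 and 112 CPM in control libraries and 91.4, 73.5 and 70 CPM in mutant libraries. Control library 1 and mutant library 1 crossed, so that the groups overlapped. Its log2 fold change was -0.30 (95% interval -0.66 to 0.06, adjusted p = 0.194 from edgeR), and -0.18 without control library 3. *Frzb*, also called Sfrp3 (ENSMUSG00000027004.3; minus strand of chromosome 2, 80411970 to 80447625), had 15.2, 19.4 and 22.2 CPM in control libraries and 18.9, 17.7 and 12.3 CPM in mutant libraries. The groups overlapped here too, with mutant library 3 the lowest of the 6 (log2 fold change -0.21, 95% interval -0.66 to 0.23, adjusted p = 0.441 from edgeR). Without mutant library 3 the log2 fold change of *Frzb* was -0.05, and without control library 3 it was -0.10.

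*Sfrp2* (ENSMUSG00000027996.13; plus strand of chromosome 3, 83766321 to 83774316) had close values in control libraries, 27.2, 26.4 and 31.2 CPM. In mutant libraries it had 18.7, 40.9 and 21.6 CPM, so that mutant libraries 1 and 3 were below every control library and mutant library 2 was above them all. Its coefficient of variation was 9.05% in control and 44.5% in mutant libraries, and the mean of both exceeded that of 98.1% of the 2732 genes tested whose level was within 0.5 on the log2 scale. The log2 fold change was -0.06 (95% interval -0.67 to 0.55, adjusted p = 0.88 from edgeR). Without mutant library 2 it was -0.48 (adjusted p = 0.0275 from edgeR), and *Sfrp2* then was the only antagonist past the threshold. *Sfrp2* shares 9.72% of its 75-base stretches with *Gm26771*, a gene on the opposite strand whose exons overlap it. *Gm26771* had at most 14.7 counts in a library, and the sum of both genes did not pass the threshold in edgeR's fit (log2 fold change -0.07, adjusted p = 0.873).

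A share within the family does not depend on how libraries are scaled. No share was recomputed with the offset for GC content, which made the fitted change of *Sfrp5* smaller. Of the summed counts per kb of *Sfrp1*, *Sfrp2*, *Sfrp4*, *Sfrp5* and *Frzb*, *Sfrp5* took 10.4%, 11% and 8.83% in control libraries and 18.1%, 15.3% and 15.7% in mutant libraries. This was a difference of 6.27 percentage points with no overlap between the groups (two-sided exact permutation test, p = 0.1, the smallest possible). As shares of counts with no division by length, the difference was 3.96 percentage points. *Sfrp4* took 1.41 ± 0.184% in control and 2.19 ± 0.347% in mutant libraries, also without overlap (exact permutation p = 0.1, n = 3 per group). *Sfrp1* had the largest share in 5 of the 6 libraries, with 47.4 ± 2.32% in control and 41.6 ± 7.17% in mutant libraries (exact permutation p = 0.2). In mutant library 2, *Sfrp2* took 37.9% and *Sfrp1* 33.5%. The shares of *Sfrp2* and *Frzb* overlapped between the groups.

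**Figure D3:**
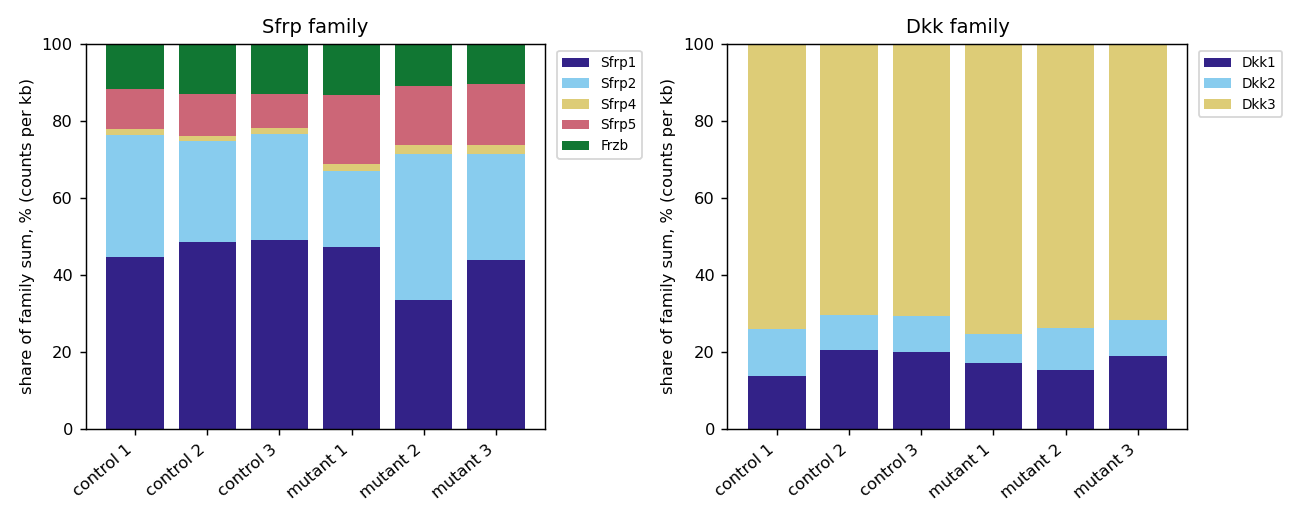
Share of each gene in the sum of its family, in percent of counts per kb of exon, for the 3 control and 3 mutant libraries. In the Sfrp family the *Sfrp5* band widens from a mean of 10.1% to 16.3%, and in the Dkk family *Dkk3* takes over 70% in every library.

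The Dkk genes showed no difference beyond the spread between libraries. *Dkk1* (ENSMUSG00000024868.8; minus strand of chromosome 19, 30545863 to 30549665), which blocks Lrp co-receptors, had 12.9, 21.8 and 21.1 CPM in control libraries and 19.3, 13 and 20.3 CPM in mutant libraries. One library of each group was low, control library 1 and mutant library 2, and the others lay together. The mean of its coefficients of variation, 24.7%, exceeded that of 96% of 2591 genes of like level. Its log2 fold change was -0.08 (95% interval -0.62 to 0.45, adjusted p = 0.816 from edgeR), so that changes up to 1.37-fold upward and to 0.651 of the control level downward lie within the interval. *Dkk2* (ENSMUSG00000028031.6; plus strand of chromosome 3, 132085292 to 132180304) had 17.1, 14.7 and 14.7 CPM in control libraries and 13, 14.5 and 15.5 CPM in mutant libraries. Its groups overlapped, with a log2 fold change of -0.11 (95% interval -0.38 to 0.16, adjusted p = 0.527 from edgeR). *Dkk3* (ENSMUSG00000030772.6; minus strand of chromosome 7, 112116017 to 112159057) had 95.4, 103 and 103 CPM in control libraries and 117, 87.2 and 107 CPM in mutant libraries. The mutant libraries lay on both sides of the controls (log2 fold change 0.05, 95% interval -0.24 to 0.33, adjusted p = 0.81 from edgeR). *Dkk3* took between 70.3% and 75.2% of the summed counts per kb of the 3 Dkk genes in all 6 libraries, and the shares of all 3 genes overlapped between the groups. The sign of the fitted change of each Dkk gene turned under at least 1 alternative.

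*Wif1* (ENSMUSG00000020218.11; plus strand of chromosome 10, 121033960 to 121100650) and *Sostdc1* (ENSMUSG00000036169.6; plus strand of chromosome 12, 36314139 to 36318452), the most abundant antagonists, had changes of opposite sign, and neither passed the threshold. *Wif1* had 229, 285 and 277 CPM in control libraries and 245, 182 and 222 CPM in mutant libraries. Only mutant library 1 reached into the range of the controls. The log2 fold change was -0.29 (standard error 0.15, 95% interval -0.62 to 0.05, adjusted p = 0.183 from edgeR), and -0.16 without mutant library 2. *Sostdc1* had 95.4, 129 and 128 CPM in control libraries and 134, 155 and 188 CPM in mutant libraries. Its groups lay apart, although mutant library 1 was little above control libraries 2 and 3. The log2 fold change was 0.44 (standard error 0.17, 95% interval 0.06 to 0.81, adjusted p = 0.0925 from edgeR). It passed the threshold in 2 of 19 alternatives, DESeq2's Wald test (adjusted p = 0.0489) and an offset for GC content (adjusted p = 0.0473 from edgeR). Without control library 1 the log2 fold change was 0.30 (adjusted p = 0.231 from edgeR). As a log2 ratio within each library, *Wif1* over *Sostdc1* was 1.27, 1.14 and 1.11 in control libraries and 0.87, 0.23 and 0.23 in mutant libraries. The ratio was lower in each mutant library than in any control library (two-sided exact permutation p = 0.1, one of 45 pairs compared).

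**Figure D4:**
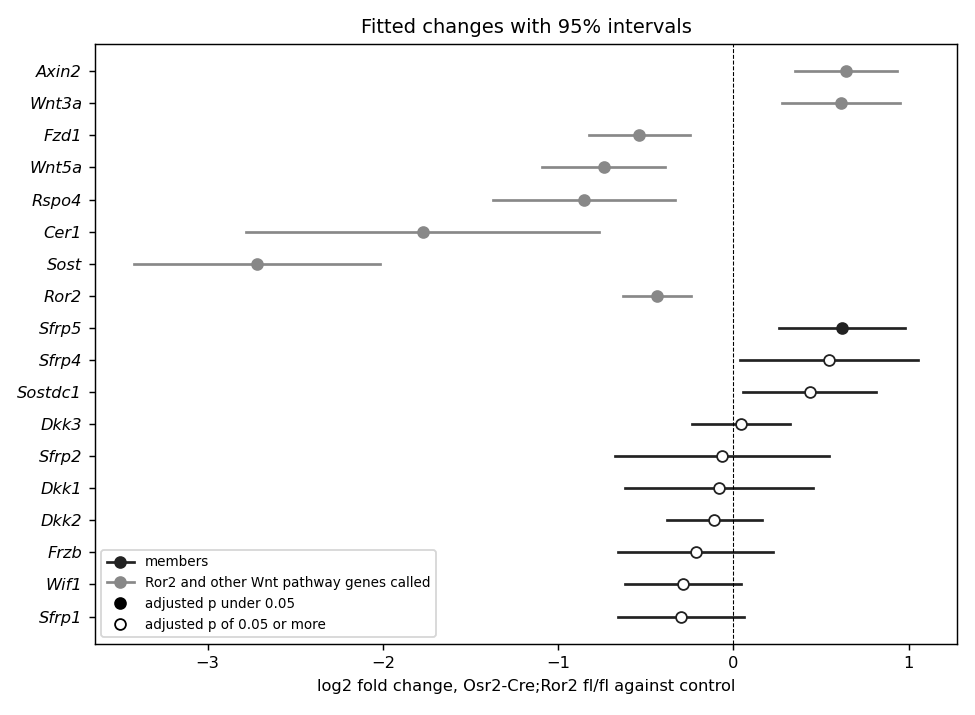
Log2 fold changes from edgeR with 95% intervals for the 10 antagonists (black) and for *Ror2* and the 7 other Wnt pathway genes past the threshold (gray). Filled points have an adjusted p-value under 0.05; among the antagonists only *Sfrp5*, at 0.62, is filled.

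Markers of epithelium and mesenchyme were set beside the antagonists. None of the 12 epithelium markers passed the threshold with edgeR's quasi-likelihood test. Without adjustment 5 had p-values under 0.05 with higher and 1 with lower values in mutant libraries, together 6 of 12, where 38.3% of all genes did. DESeq2 called 3 higher and 0 lower, and voom 5 higher and 2 lower. Over all genes tested, DESeq2 called 5410 of 19316 and voom 6341 of 19330. *Amelx* had 94466 ± 5377 CPM in control and 139640 ± 19159 CPM in mutant libraries (adjusted p = 0.0849 from edgeR), and *Ambn* 64773 ± 3896 and 60042 ± 13294 CPM (adjusted p = 0.743). The mean log2 CPM of the 12 markers was 9.54 ± 0.0508 in control and 9.61 ± 0.104 in mutant libraries. Relative to that mean within each library, *Sfrp5* was higher by 0.53 in mutant libraries without overlap of the groups, while *Sostdc1* was higher by 0.36 and *Sfrp4* by 0.46, with overlap. *Wif1* was lower by that measure, from -1.50 ± 0.136 to -1.86 ± 0.126, without overlap. Relative to the mean of the 8 mesenchyme markers, *Sfrp5* was higher by 0.73, *Sfrp4* by 0.65 and *Sostdc1* by 0.55, in each case without overlap. The two-sided exact permutation p was 0.1 for each of the 5 differences without overlap, among 10 antagonists set against both lists. Other genes were not set against the markers, so this count has no background of its own. In plain CPM 44.7% of all genes tested did not overlap, *Sfrp5*, *Sfrp4* and *Sostdc1* among them. Of the 8 mesenchyme markers 1 was called by edgeR's quasi-likelihood test, with higher values in mutant libraries, against 20.2% of all genes. Without adjustment 1 was higher and 2 were lower, where 38.3% of all genes had p-values under 0.05. DESeq2 also called 1 higher and 2 lower, and voom 1 higher and 1 lower. The part of epithelial or mesenchymal content in the differences of the antagonists was not tested otherwise.

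Other genes of the Wnt pathway were then described from lists of receptors, ligands, R-spondins, feedback genes and further secreted regulators. Of 50 such genes tested, 7 passed the threshold, 2 higher and 5 lower in mutant libraries (edgeR's quasi-likelihood test, against 20.2% of all genes). Among the receptors and partners of the antagonists, *Lrp4*, *Lrp5*, *Lrp6*, *Kremen1* and *Kremen2*, edgeR's quasi-likelihood test called 0 of 5, with 1 under an unadjusted p of 0.05. DESeq2 and the likelihood ratio test also called 0, and voom called 1 lower. Over all genes tested, DESeq2 called 5410 of 19316, and of 19330 the likelihood ratio test called 5156 and voom 6341. *Lrp6*, the main co-receptor target of Dkk1, had 135 ± 13.3 CPM in control and 104 ± 18.7 CPM in mutant libraries (adjusted p = 0.101 from edgeR, and 0.0345 with limma's voom).

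Of 14 Wnt ligands tested, edgeR's quasi-likelihood test called 1 higher and 1 lower, whereas DESeq2 and voom each called 4 higher and 1 lower. *Wnt5a*, the ligand known to bind Ror2, fell from 176, 244 and 230 CPM in control libraries to 138, 111 and 140 CPM in mutant libraries, which edgeR put at a log2 change of -0.74 ± 0.15 (SE, adjusted p = 0.016). *Wnt3a*, a canonical ligand, rose from 66.6, 49.1 and 53.8 CPM to 88.3, 73.4 and 97.6 CPM (log2 fold change 0.61, adjusted p = 0.0254 from edgeR). The groups lay apart for both ligands. Of 10 Frizzled receptors, *Fzd1* was lower (from 38.9 ± 4.95 to 26.8 ± 2.79 CPM, adjusted p = 0.0242 from edgeR).

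Among 9 genes of the R-spondins and their receptors, which enhance Wnt signaling at the membrane, *Rspo4* fell from 289 ± 7.16 to 160 ± 52.2 CPM (log2 fold change -0.85, adjusted p = 0.0348 from edgeR), and the other 8 did not pass that test. DESeq2 called 3 of the 9 lower, voom 3 lower and 1 higher, and the likelihood ratio test 2 lower. Of 7 canonical feedback genes, *Axin2*, a negative regulator induced by β-catenin, rose from 33, 35.7 and 34.8 CPM to 59.5, 43.9 and 58.2 CPM (log2 fold change 0.64, standard error 0.13, adjusted p = 0.0138 from edgeR). As for *Sfrp5*, all mutant libraries lay above all control libraries. By contrast, the paper found mesenchymal *Axin2* not significantly changed at this age in the same mutant, by RNAscope and qPCR. Immunostaining for active β-catenin likewise gave no significant change there. The libraries used here were not mesenchyme alone, since epithelium markers took between 17.8% and 24.2% of the estimated counts. Which tissue the rise of *Axin2* came from was not tested. Without control library 2 or 3, 6 of the 7 pathway calls were lost, *Axin2* with adjusted p-values of 0.0625 and 0.0701 from edgeR and *Wnt3a* with 0.119 and 0.114, and that of *Sost* was kept.

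Of 5 other secreted antagonists and regulators tested, 2 were lower. *Sost*, the antagonist made by osteocytes, had 4.53, 8.65 and 6.67 CPM in control libraries and 0.896, 1.35 and 0.763 CPM in mutant libraries, which edgeR put at a log2 change of -2.72 ± 0.31 (SE, adjusted p = 0.00141). *Cer1*, a low-count gene, had 0.842 ± 0.389 and 0.244 ± 0.0537 CPM (adjusted p = 0.0281 from edgeR). Markers of dental follicle, ligament and bone summed to between 676 and 1053 CPM in control libraries and between 719 and 1112 CPM in mutant libraries, with 1 of 9 called higher and 2 lower. The skeletal muscle markers, 5 of 6 of them called lower, moved in the same direction as *Sost*, and their part in its change was not tested.

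**Figure D5:**
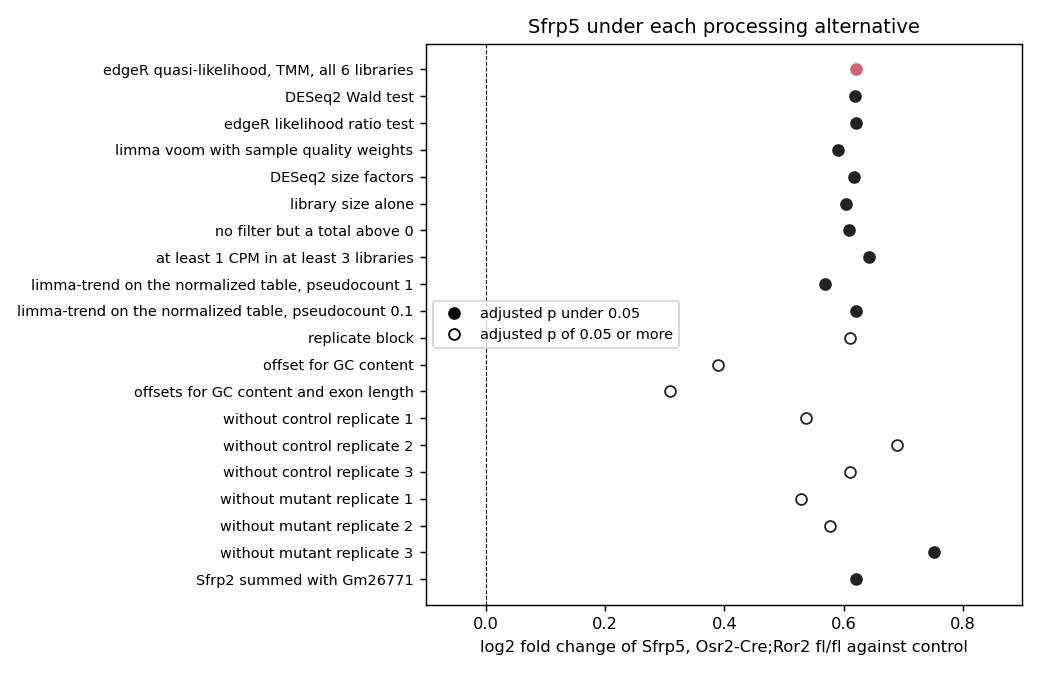
Log2 fold change of *Sfrp5* in mutant against control libraries under the main test (top, red) and each alternative. All points lie above 0, from 0.31 to 0.75, and open points, with an adjusted p-value of 0.05 or more, include 5 of the 6 fits that leave out a library.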

How the data were processed

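Dental pulp libraries of 3 Ror2fl/fl control and 3 Osr2-Cre;Ror2fl/fl mice were grouped by the genotype in the labels. The authors deposited estimated counts per gene on mm10, not normalized; 47.8% of the values used are whole numbers. They also deposited a normalized signal table of 22061 genes, in which each value is the count plus 1 times a factor per library. The methods name TopHat 2 and single-end reads of 75 cycles, whereas the submitters' processing notes name STAR 2.6.1d and Partek. Reads over exons were counted. The annotation, the counting tool's settings and the use of strand are not given in the sources used here. The count table holds 6 columns of other samples, which were not used.

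Counts were rounded to whole numbers (the design had assumed whole counts), filtered with filterByExpr, scaled with TMM and tested with the quasi-likelihood test of edgeR 4.0.16 in R 4.3.3, without a block. Adjustment was by Benjamini-Hochberg over all 19330 genes. Log2 CPM used a prior count of 2. Intervals of 95% were computed from the standard error, itself the fold change over the root of the F statistic. The fit was tested on simulated data. It called 65 of 100 genes with a true log2 change of 1 in size and 18 of 100 with 0.5. Of 19130 unchanged genes it called 2. The simulation changed 200 genes, whereas 20.2% of all genes were called in the data. Adjustment after Benjamini and Hochberg is stricter where fewer genes change. These rates are therefore not those of the test on the data. Changes of such size can go uncalled, but how often was not measured for the data. No pair of libraries in a group was alike within counting error (chi-square per gene of at least 61.7). Nothing in the labels says that libraries are separate animals, so p-values measure the spread between these samples, which may be technical. Lengths, coordinates and transcripts came from GENCODE M21, which gave an entry for all 27506 genes, and GC content from the longest transcript. Promoters came from RefSeq (GRCm38.p6).

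Genes named are the 10 antagonists, *Ror2*, up to 3 called genes of each pathway list and up to 2 abundant genes of a marker list; *Lrp6* was added after its values were seen. The members, lists and motifs were chosen with earlier results of these data known. Alternatives were DESeq2 1.42.0, edgeR's likelihood ratio test, limma 3.58.1 (voom, and limma-trend on the normalized table), other scalings and filters, offsets for GC content and length, a replicate block and leaving out each library.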

Additional observations from a re-analysis of the deposited data

How the results depend on the processing

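The number of antagonists called was 1 in 12 of 19 alternatives, although the gene was *Sostdc1* in place of *Sfrp5* with an offset for GC content and *Sfrp2* without mutant library 2. It was 2 with DESeq2's Wald test, which added *Sostdc1* and called 5410 of 19316 genes over all. It was 0 with the replicate block and with offsets for GC content and exon length. It ran from 0 to 1 over the fits that leave out 1 library, in total and in each direction. *Sfrp5* was higher in all 19 and past the threshold in 11, with adjusted p-values from 0.00429 to 0.197.

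Pathway genes called numbered 14 with DESeq2 (7 higher), which called 5410 of 19316 genes over all, and 17 with voom (8 higher, 9 lower). Those called higher numbered 4 with the likelihood ratio test and with the filter at 1 CPM, and 1 with the offset for GC content. With 1 library left out, 1 to 9 were called, 0 to 5 higher and 1 to 6 lower. Of the 7 named, *Sost* passed in all alternatives, and without control library 2 or 3 *Cer1*, *Rspo4*, *Wnt3a*, *Wnt5a*, *Fzd1* and *Axin2* did not. *Wnt3a* also did not with either offset (0.42 and 0.39), nor without mutant library 1 or 3. *Cer1* also did not without mutant library 1 or 2, *Rspo4* without control library 1 and *Fzd1* with the replicate block. All 7 kept their direction. Over all genes, voom called 6341 (3167 higher, 3174 lower), the offset for GC content called 1266 lower, and the fits without 1 library called 872 to 5001 (458 to 2520 higher, 414 to 2481 lower). They called 910 without control library 2, 872 without control library 3 and 2404 without mutant library 1. The cause of these shifts was not tested.

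With the replicate block, 2013 genes were called (1012 higher, 1001 lower), *Sfrp5* had an adjusted p of 0.0625 from edgeR and *Ror2* a log2 fold change of -0.43 (adjusted p = 0.0582). Same-numbered libraries did not deviate together (correlations of -0.1, -0.0795 and -0.00375). The methods speak of 3 pairs of samples and do not say what was paired. With 3 libraries per group these correlations cannot show whether a pairing exists. *Ror2* ran from -0.46 to -0.41 with 1 library left out and lost the threshold without control library 2 or 3.

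The fitted changes of 4 antagonists that did not pass the threshold turned sign. With the offset for GC content *Dkk1* was 0.032, *Dkk2* 0.011 and *Dkk3* -0.011, and with offsets for GC content and exon length *Dkk2* was 0.010 and *Dkk3* -0.021. Over the libraries left out, *Dkk1* ran from -0.300 to 0.103 and *Dkk3* from -0.050 to 0.166. Without a change of sign, *Sfrp1* ran from -0.44 to -0.18, *Frzb* from -0.36 to -0.05, *Wif1* from -0.39 to -0.16 and *Sfrp4* from 0.35 to 0.70. Likewise, *Sostdc1* ran from 0.29 to 0.55. *Sfrp2* ran from -0.48 to 0.14 over the libraries left out. The difference in the share of *Sfrp2* in its family, -0.20 percentage points, was 0.89 with no division by length and ran from -4.96 to 4.14 over the libraries left out. That of *Dkk1* ran from -3.25 to 0.14, and that of *Dkk2* from -1.57 to 0.27. Summing *Sfrp2* with *Gm26771* was chosen after seeing the data and changed no call.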

Other observations

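Among the 45 pairs of antagonists, the log2 ratio of the 2 genes within a library did not overlap between the groups for 15, or 33.3%. The levels of single genes did not overlap for 44.7% of all genes tested, which is a different measure. Ratios of other gene pairs were not computed, so this count has no background of its own. *Sfrp5* and *Sfrp4* were each in 5 of these pairs, *Wif1* and *Sostdc1* in 4, *Dkk2*, *Sfrp1* and *Frzb* in 3, *Dkk3* in 2, *Sfrp2* in 1 and *Dkk1* in 0. *Sfrp5* over *Frzb* was -0.95, -0.99 and -1.33 in control libraries and -0.31, -0.29 and -0.18 in mutant libraries. The ratio of *Dkk3* to *Wif1* was -1.26, -1.47 and -1.42 in control libraries and -1.07, -1.06 and -1.05 in mutant libraries. The genes of these pairs share libraries, and no pair was tested beyond the exact permutation p of 0.1 that 3 libraries against 3 allow.

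Among 60 other genes of the Wnt lists, *Notum*, a secreted enzyme that inactivates Wnt ligands, had the pattern most like that of *Sfrp5* over the 6 libraries (Pearson r = 0.962 of log2 CPM, a description in which both groups lie apart). *Notum* had 20.6, 24 and 23.4 CPM in control libraries and 31.3, 28.5 and 27 CPM in mutant libraries, with an adjusted p of 0.0503 from edgeR (0.0246 to 0.715 over the alternatives). Its log2 fold change was 0.35, against 0.13 with the offset for GC content and 0.07 with offsets for GC content and exon length. That of *Sfrp5* also became smaller with these offsets, from 0.62 to 0.39 and 0.31.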
